A study of Mus musculus with 12 samples.

Results

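HDAC3 works as the catalytic subunit of the NCoR corepressor complex, and the RNA of that complex is described here in microglia in which Hdac3 had been deleted. Its 5 members were taken by gene symbol from the count files: Hdac3 and the genes for the scaffold Ncor1, the WD40-repeat subunits Tbl1x and Tbl1xr1, and the adaptor Gps2. Each symbol matched 1 of the 55401 identifiers counted, and all 5 members were among the 16451 genes that had enough counts to be tested. RNA came from CD45int CD11b+ microglia sorted from the brains of male mice on day 3 after transient focal cerebral ischemia (tFCI), a 60 min occlusion of the left middle cerebral artery, or after a Sham operation. WT mice were CX3CR1wt/wt:HDAC3loxp/loxp and miKO mice were CX3CR1CreER/wt:HDAC3loxp/loxp, so both genotypes carried floxed Hdac3 and only miKO mice carried the tamoxifen-inducible Cre, in 1 allele of Cx3cr1. Tamoxifen was injected on 5 consecutive days at an age of 6 to 8 weeks to induce the deletion, and surgery followed at least one month later. Whether WT mice received tamoxifen is not given in the sources used here. Each of the 4 groups, named by genotype and surgery (such as miKO-tFCI), had 3 libraries, each made from microglia pooled from 3 to 4 hemispheres. Replicate 1 of every group belonged to batch 1, and replicates 2 and 3 belonged to batch 2. Cx3cr1 is itself a microglial gene and is also active in other brain macrophages, and miKO mice keep 1 intact Cx3cr1 allele.

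Corepressor complexes let a DNA-bound factor keep a gene silent. Ncor1 encodes a large scaffold protein that binds nuclear receptors without an activating ligand, such as the thyroid hormone receptor, the LXRs and the REV-ERBs, and also binds other repressors such as BCL6. HDAC3 removes acetyl groups from histones and gains its full activity only when held by the scaffold. TBL1X and TBL1XR1, which are close relatives, and GPS2 bind another stretch of the scaffold, and the TBL1 proteins are also known as exchange factors that help to swap corepressors for coactivators when a ligand arrives.

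Libraries held 7697864 to 9452222 counts on genes. The member with the fewest counts, Hdac3, had 163 to 458 per library, and Ncor1 had 1028 to 1692. The levels below are counts scaled to library size (CPM) with TMM factors. All 10 microglial markers checked, Cx3cr1 among them, had a mean of at least 1 CPM in every group. Their summed level had a median of 35400 CPM in WT-Sham, 28100 in miKO-Sham, 23000 in WT-tFCI and 17000 in miKO-tFCI. Cx3cr1, which carries Cre in 1 allele in miKO mice only, had means of 3860, 1200, 1530 and 438 CPM in the same order. The difference of the sum between genotypes therefore includes that of the Cre-bearing gene. The 7 monocyte markers had a median sum of 20.2 CPM in WT-Sham, 59 in miKO-Sham, 67.1 in WT-tFCI and 370 in miKO-tFCI. The libraries of WT-Sham (12.8 to 90.8 CPM), miKO-Sham (56.3 to 105) and WT-tFCI (60.6 to 209) overlapped. Only miKO-tFCI (294 to 597 CPM) lay above all of them. Replicate 1 of miKO-tFCI held the lowest microglial sum, 10500 CPM, and the highest monocyte sum, 597 CPM. The 6 markers of border-associated macrophages had a median summed level of 118 CPM in WT-Sham, 56.4 in miKO-Sham, 226 in WT-tFCI and 550 in miKO-tFCI. Among the miKO-Sham libraries replicate 3 stood apart on these markers, at 274 CPM against 56.4 and 51.3 CPM. The part of these marker levels in the results below was not tested.

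One library did not follow its batch. Replicate 2 of miKO-Sham belonged to batch 2, but its deviations from the group mean, taken across genes, ran with those of replicate 1 in the other groups (r = 0.329 to 0.598) and not with those of replicate 2 (r = -0.415, -0.235 and -0.0207). Its counts were also closest to those of miKO-Sham replicate 1, with a chi-square per degree of freedom of 2.82, against 40.8 for replicates 2 and 3. The batch term and the differences within batches after Sham take it as batch 2. Without it, Hdac3, Tbl1x and Tbl1xr1 still passed in miKO-Sham vs. WT-Sham (log2 fold changes -0.86, 0.88 and 0.63, edgeR adjusted p = 0.00725, 0.00326 and 0.0122). They also passed without miKO-Sham replicate 3 (-0.73, 0.93 and 0.65, edgeR adjusted p = 0.0158, 0.00188 and 0.00931) and with no batch term (-0.81, 0.87 and 0.62, edgeR adjusted p = 0.00587, 0.00255 and 0.0106).

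**Figure D1:**
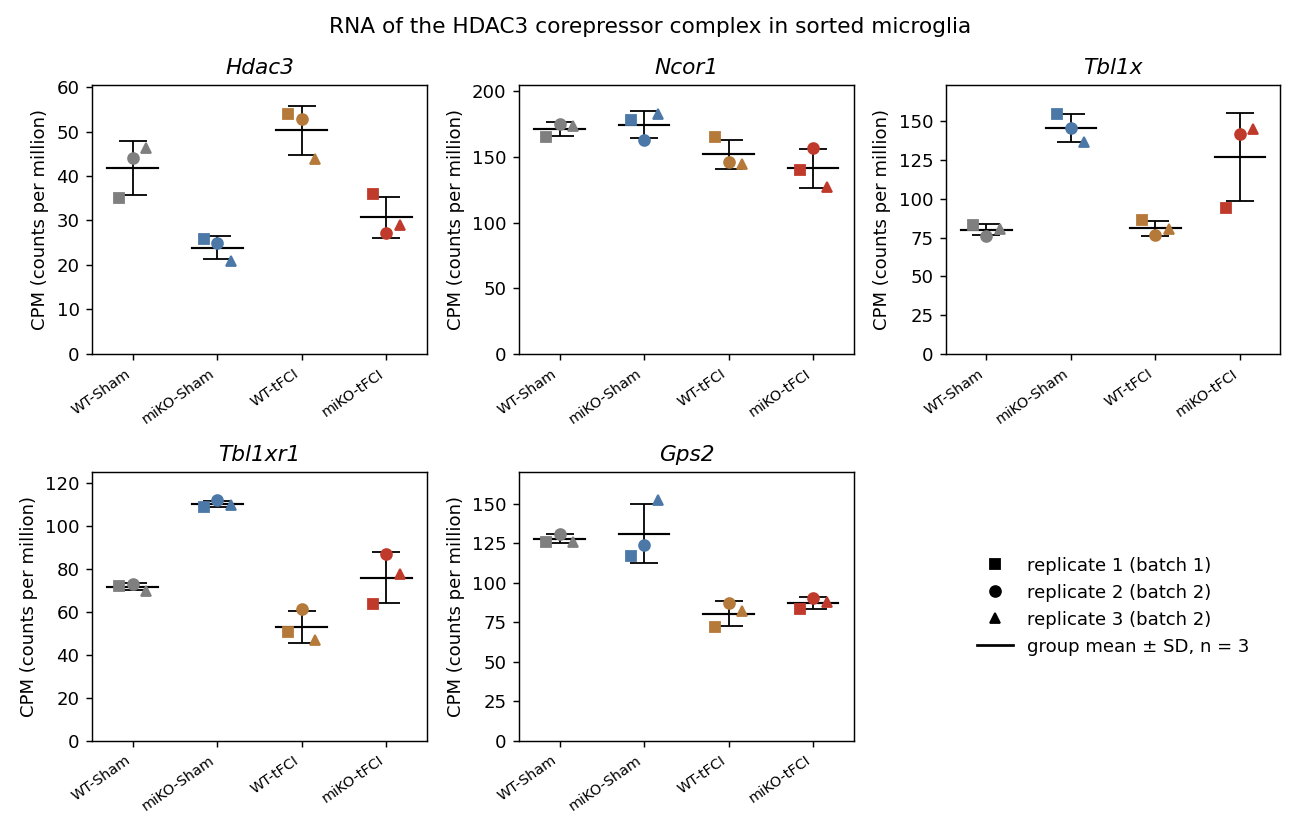
CPM (y axis, from 0) of Hdac3, Ncor1, Tbl1x, Tbl1xr1 and Gps2 in each of the 12 libraries, by group (x axis), with the group mean and SD of 3 libraries as black lines. Hdac3 was lower and Tbl1x and Tbl1xr1 were higher in miKO than in WT libraries of the same surgery, and Gps2 was lower in tFCI than in Sham libraries of the same genotype.

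The genes differ in length, so levels were compared between members only per kilobase. Per kilobase of annotated exon, Gps2 had the highest level in WT-Sham, 79.4 ± 1.84 CPM per kb (SD, n = 3). The other members lay close together on that scale, with Ncor1 at 13.4 ± 0.415, Tbl1x at 11.3 ± 0.519, Hdac3 at 10.3 ± 1.48 and Tbl1xr1 at 8.06 ± 0.189 CPM per kb. Hdac3 did not differ from Tbl1x beyond the spread of its libraries. Per kilobase of coding sequence Gps2 was again highest, at 118 ± 2.72 CPM per kb, but the order of the others changed. Tbl1x (50.6 ± 2.32) and Tbl1xr1 (46.5 ± 1.09) then came next, ahead of Hdac3 (30.3 ± 4.36) and Ncor1 (22.5 ± 0.7 CPM per kb). Gps2 and Hdac3 thus kept their places in the order under both lengths, while those of the other 3 depended on the length used. In miKO-Sham, Hdac3 was last of the 5 members per kilobase of exon, at 5.89 ± 0.652 CPM per kb, and last per kilobase of coding sequence, at 17.3 ± 1.92 CPM per kb.

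The first question was whether the targeted gene fell. Hdac3 (ENSMUSG00000024454.16, chromosome 18 from 37935844 to 37955016 of GRCm38, minus strand) was lower in every miKO library than in every WT library of the same surgery, and in neither surgery was it near 0. In WT-Sham its level was 35, 44 and 46.4 CPM, and in miKO-Sham it was 25.8, 25 and 20.9 CPM. After tFCI it was 54, 52.9 and 43.9 CPM in WT and 36, 27.1 and 28.9 CPM in miKO. The groups did not overlap within either surgery, although miKO-tFCI replicate 1 (36 CPM) was above WT-Sham replicate 1 (35 CPM). The fitted level in miKO was 56.9% of WT after Sham (log2 fold change -0.81, SE 0.16, edgeR adjusted p = 0.00281) and 61.1% of WT after tFCI (log2 fold change -0.71, SE 0.16, edgeR adjusted p = 0.0127). The call after tFCI was lost without WT-tFCI replicate 2, where the change was -0.65 with an edgeR adjusted p of 0.0705. Within batch 1 and batch 2 the Sham difference was -0.43 and -0.98 in log2 CPM. The deleted exons are not given in the sources used here, and the counts are summed over the whole gene, so reads from exons that stay in the deleted allele count as Hdac3. In a pool of cells, fewer cells with Hdac3 RNA and less Hdac3 RNA per cell cannot be told apart.

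Hdac3 did not pass the test for tFCI in either genotype. Its level after tFCI was 120% of Sham in WT (log2 fold change 0.26, SE 0.16, edgeR adjusted p = 0.218) and 128% in miKO (log2 fold change 0.36, SE 0.17, edgeR adjusted p = 0.0928). In miKO the tFCI libraries all lay above the Sham libraries, the closest being 27.1 and 25.8 CPM, and in WT the 2 groups overlapped. The 95% intervals ran from -0.08 to 0.60 in WT and from 0.01 to 0.72 in miKO.

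Neither neighbour of Hdac3 passed the test between genotypes. Diaph1, an actin-nucleating formin gene, starts 368 bp beyond the end of Hdac3 on the same strand, and its genotype difference was -0.03 after Sham (edgeR adjusted p = 0.927) and 0.19 after tFCI (edgeR adjusted p = 0.516). Diaph1 did rise after tFCI, by 1.08 on the log2 scale in WT and by 1.31 in miKO (edgeR adjusted p = 0.000286 and 5.94e-05). Rell2 starts 63 bp away on the other strand and passed in no comparison, with a genotype difference of -0.51 after Sham (SE 0.32, edgeR adjusted p = 0.302). Its counts were low, 27 to 102 per library, and its 95% interval, -1.198 to 0.17, includes a fall as large as that of Hdac3. None of the exon bases of Hdac3 are shared with another gene that was counted.

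Tbl1x and Tbl1xr1, the paired WD40-repeat subunits, were the 2 members that were higher in miKO. Tbl1x (ENSMUSG00000025246.13, chromosome X from 77511013 to 77662983, plus strand) read 83.3, 76.1 and 80.7 CPM in WT-Sham and 155, 146 and 137 CPM in miKO-Sham. Tbl1xr1 (ENSMUSG00000027630.13, chromosome 3 from 22076652 to 22216594, plus strand) read 72.1, 73.2 and 69.9 CPM in WT-Sham and 109, 112 and 110 CPM in miKO-Sham. The WT-Sham and miKO-Sham libraries of both genes lay far apart relative to the spread within each group. The fitted change was 0.87 for Tbl1x (SE 0.15, edgeR adjusted p = 0.00109), or 182% of WT, and 0.62 for Tbl1xr1 (SE 0.14, edgeR adjusted p = 0.00473), or 154% of WT. Both changes exceeded the 0.58 that the study set as its fold threshold. Among all genes tested, 9.94% were called higher and 8.12% lower in miKO-Sham vs. WT-Sham. Among the 5 members, 2 were called higher and 1, Hdac3, lower. Hdac3 is the gene deleted in miKO, so its call was set by the design and is not read against the share called lower. The members were also chosen with earlier results of these data known.

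After tFCI the same pair was called, with less certainty. Tbl1x read 86.3, 76.8 and 80.3 CPM in WT-tFCI, against 94.4, 142 and 145 CPM in miKO-tFCI. The groups did not overlap, but miKO-tFCI replicate 1 lay close to the WT libraries and far from the other 2 of its group. The fitted change was 0.64 (SE 0.15, edgeR adjusted p = 0.0168). In batch 1, which holds that library, the difference was 0.13 in log2 CPM, and in batch 2 it was 0.87. Without miKO-tFCI replicate 1 the change was 0.84 (edgeR adjusted p = 0.000736), and leaving out any one of 4 other libraries ended the call: WT-tFCI replicate 2 (edgeR adjusted p = 0.0891), WT-tFCI replicate 3 (0.0808), miKO-tFCI replicate 2 (0.0599) or miKO-tFCI replicate 3 (0.0658).

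Tbl1xr1 read 50.7, 61.4 and 47 CPM in WT-tFCI, against 63.5, 87.2 and 77.5 CPM in miKO-tFCI, again without overlap, the nearest libraries being 61.4 and 63.5 CPM. Its fitted change was 0.51 (SE 0.14, edgeR adjusted p = 0.0277), under the 0.58 fold threshold of the study. Without a batch term its edgeR adjusted p was 0.0578, and it was 0.188 without WT-tFCI replicate 3, 0.0991 without WT-tFCI replicate 1, 0.098 without miKO-tFCI replicate 2, 0.0685 without miKO-tFCI replicate 3 and 0.0512 without WT-Sham replicate 2. Within batches its difference was 0.32 and 0.61 in log2 CPM. In miKO-tFCI vs. WT-tFCI, 4.50% of all genes were called higher and 5.40% lower. Of the 5 members, 2 were called higher. The 1 called lower was Hdac3, the deleted gene, which is not read against that share. With Hdac3 counted, the number of members called fell from 3 to 1 when WT-tFCI replicate 2 or 3, or miKO-tFCI replicate 2 or 3, was left out.

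**Figure D2:**
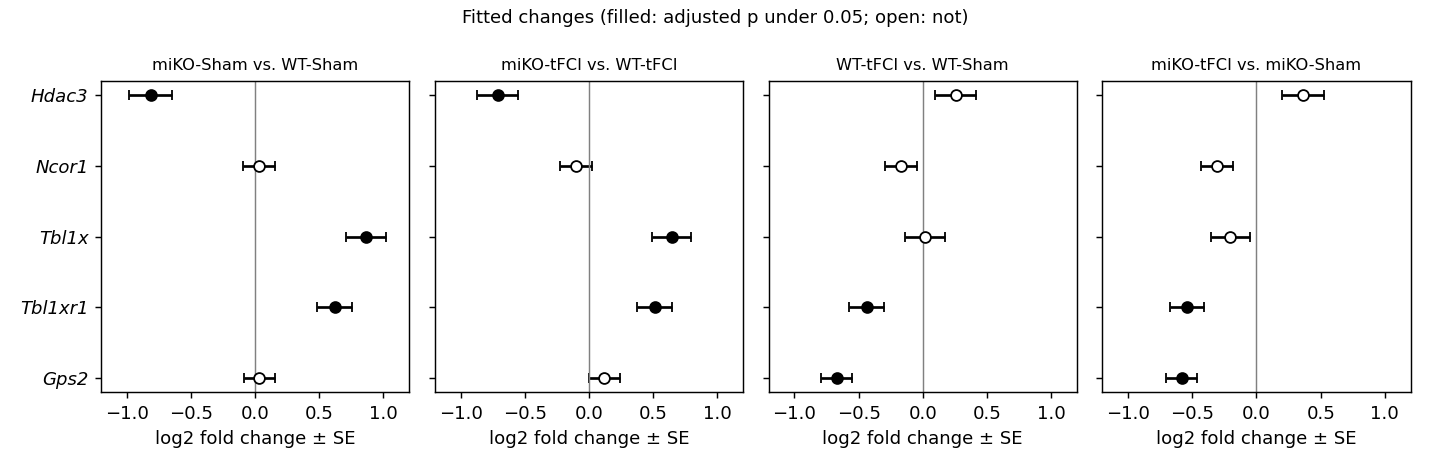
Fitted log2 fold change with its SE (x axis) of the 5 members (y axis) in the 4 comparisons between groups, from edgeR over 12 libraries. Filled points had an adjusted p under 0.05: Hdac3, Tbl1x and Tbl1xr1 in both comparisons of genotype, and Tbl1xr1 and Gps2 in both comparisons of surgery.

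Because Tbl1x and Tbl1xr1 are relatives, the exact sequence that their annotated transcripts share was counted. The 2 transcripts of Tbl1x and the 11 of Tbl1xr1 had no window of 25, 50 or 100 bases in common, and the longest run present in both was 20 bases. The gene starts of the pair, which moved together between genotypes, and of Gps2, which moved with surgery, are given here as in RefSeq for GRCm38.p6, from 250 bases before to 50 bases after the start, 5′ to 3′ on the strand of the gene. For Tbl1x and Gps2 the RefSeq start lies downstream of the gene start in the coordinates given with each gene. More than the last 50 bases of those windows therefore lies inside the gene by those coordinates. Capitals mark matches on either strand to one of 6 motifs: the GC box (GGGCGG), an ETS site (CCGGAAG), the E-box (CACGTG), the TATA box (TATAAA), the CCAAT box (CCAAT) and a PU.1 site (GAGGAAGT). The ETS and PU.1 motifs share the letters GGAAG, and no 2 matches shown overlap.
Tbl1x, chrX:77510977-77511276, plus strand: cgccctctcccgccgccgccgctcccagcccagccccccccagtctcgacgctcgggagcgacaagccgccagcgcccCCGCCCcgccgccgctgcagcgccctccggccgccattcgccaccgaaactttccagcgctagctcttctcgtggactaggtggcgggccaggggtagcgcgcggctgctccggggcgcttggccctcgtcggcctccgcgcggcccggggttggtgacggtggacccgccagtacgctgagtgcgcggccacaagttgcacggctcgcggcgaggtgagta
Tbl1xr1, chr3:22076402-22076701, plus strand: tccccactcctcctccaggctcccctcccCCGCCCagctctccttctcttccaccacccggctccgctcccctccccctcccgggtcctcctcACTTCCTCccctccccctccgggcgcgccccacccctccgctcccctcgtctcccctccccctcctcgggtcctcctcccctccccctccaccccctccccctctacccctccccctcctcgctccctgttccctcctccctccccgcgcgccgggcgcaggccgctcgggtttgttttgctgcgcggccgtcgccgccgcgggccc
Gps2, chr11:69913770-69914069, plus strand: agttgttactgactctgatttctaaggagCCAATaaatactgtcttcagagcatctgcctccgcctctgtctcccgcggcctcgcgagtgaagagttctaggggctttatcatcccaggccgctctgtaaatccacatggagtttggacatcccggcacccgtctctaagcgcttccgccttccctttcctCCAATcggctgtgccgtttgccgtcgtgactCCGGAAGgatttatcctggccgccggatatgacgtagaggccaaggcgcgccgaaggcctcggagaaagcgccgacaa

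Tbl1x and Tbl1xr1 both opened on stretches rich in G and C, 75.3% and 76.3% of bases, at or above 96.7% and 97.3% of the 32851 windows of this kind. Each held 1 GC box, a motif present in 35.7% of all windows, and Tbl1xr1 also held 1 PU.1 match, present in 3.2%. Gps2 was less rich in G and C, at 56.7%, and held 2 CCAAT boxes (present in 37.4% of windows) and 1 ETS match (present in 8.86%). No E-box (present in 7.15% of windows) or TATA box (present in 13.6%) was found in the 3 windows. These matches describe letters only. Promoter windows were matched by symbol for 4 of the 5 members, and Hdac3 was the member without one.

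Gps2 followed surgery and not genotype. The gene (ENSMUSG00000023170.14, chromosome 11 from 69913888 to 69916591, plus strand) encodes an adaptor of the complex that also restrains inflammatory signalling in macrophages. It read 126, 131 and 126 CPM in WT-Sham and 71.6, 87.3 and 81.8 CPM in WT-tFCI. In miKO it read 117, 124 and 152 CPM after Sham and 83, 90.4 and 87.9 CPM after tFCI. In both genotypes every tFCI library lay below every Sham library. The fall was 0.67 on the log2 scale in WT (log2 fold change -0.67, SE 0.12, edgeR adjusted p = 0.000617), to 62.8% of Sham, and 0.58 in miKO (log2 fold change -0.58, SE 0.12, edgeR adjusted p = 0.00152), to 66.7% of Sham. It kept its direction and its call under every alternative run, with a highest edgeR or DESeq2 adjusted p of 0.00868 in WT and 0.02 in miKO. Its genotype difference was 0.03 after Sham (95% interval -0.22 to 0.29, edgeR adjusted p = 0.882) and 0.12 after tFCI (95% interval -0.14 to 0.38, edgeR adjusted p = 0.572). The gene is compact, and Neurl4 ends 68 bp before it on the same strand. Neurl4 also fell after tFCI, by 0.79 on the log2 scale in WT (log2 fold change -0.79, edgeR adjusted p = 0.00554) and by 0.66 in miKO (log2 fold change -0.66, edgeR adjusted p = 0.0149). Eif5a, the translation factor gene that ends 123 bp beyond Gps2 on the other strand, rose after tFCI, by 1.02 in WT and 0.63 in miKO (edgeR adjusted p = 1.49e-05 and 8e-04). Between genotypes Eif5a was higher in miKO after Sham (0.47, SE 0.12, edgeR adjusted p = 0.0121) and did not pass after tFCI (0.08, edgeR adjusted p = 0.715). Neurl4 did not pass between genotypes after either surgery (edgeR adjusted p = 0.69 and 0.992).

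Tbl1xr1 fell after tFCI as well, while its relative Tbl1x did not pass. In WT, Tbl1xr1 was 73.9% of Sham (log2 fold change -0.44, SE 0.14, edgeR adjusted p = 0.0203), and in miKO it was 68.7% of Sham (log2 fold change -0.54, SE 0.14, edgeR adjusted p = 0.00502). The Sham and tFCI libraries did not overlap in either genotype. The call in WT was lost in batch 2 alone (edgeR adjusted p = 0.0797) and without WT-Sham replicate 1 (0.0663), WT-tFCI replicate 1 (0.0614) or WT-tFCI replicate 3 (0.0789). Since WT-tFCI was low and miKO-Sham was high, miKO-tFCI (63.5 to 87.2 CPM) spanned the range of WT-Sham (69.9 to 73.2 CPM). Tbl1x differed by 0.02 after tFCI in WT (SE 0.15, edgeR adjusted p = 0.934) and by -0.20 in miKO (SE 0.15, edgeR adjusted p = 0.306). The latter was -0.02 without miKO-tFCI replicate 1. Whether the change of Tbl1xr1 with surgery differs from that of Tbl1x was not tested. As a description, the log2 ratio of Tbl1x to Tbl1xr1 CPM was 0.16 ± 0.09 in WT-Sham and 0.62 ± 0.26 in WT-tFCI, and 0.40 ± 0.09 in miKO-Sham and 0.73 ± 0.17 in miKO-tFCI (SD, n = 3 each).

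In WT-tFCI vs. WT-Sham, 15.4% of all genes tested were called lower and 23.5% higher, and 2 of the 5 members were lower and 0 higher. In miKO-tFCI vs. miKO-Sham, 17.7% were called lower and 24.5% higher, and again 2 of the 5 members were lower and 0 higher. Against such shares, 2 calls among 5 genes do not set the complex apart from other genes. The 2 comparisons of surgery share no libraries, but each shares a group with each comparison of genotype.

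The scaffold Ncor1 passed in none of the 4 comparisons. Ncor1 (ENSMUSG00000018501.17, chromosome 11 from 62316426 to 62458541, minus strand) read 165, 175 and 174 CPM in WT-Sham and 178, 163 and 183 CPM in miKO-Sham, so the groups overlapped. After tFCI it read 165, 146 and 145 CPM in WT and 140, 157 and 127 CPM in miKO, which overlapped too. Its genotype difference was 0.03 after Sham (95% interval -0.23 to 0.30, edgeR adjusted p = 0.898) and -0.10 after tFCI (95% interval -0.37 to 0.16, edgeR adjusted p = 0.649). A genotype change of the size of those of Tbl1x or Hdac3 therefore lay outside both intervals, at their fitted values. In both genotypes every tFCI library of Ncor1 lay below every Sham library. The closest were 163 and 157 CPM in miKO, and in WT both rounded to 165 CPM. With tFCI, its difference was -0.17 in WT (edgeR adjusted p = 0.293) and -0.30 in miKO (SE 0.12, edgeR adjusted p = 0.0617). That last value came under the threshold with DESeq2 (adjusted p = 0.0498) and in edgeR without WT-Sham replicate 1 (0.0414) or miKO-tFCI replicate 2 (0.0319). Ncor1 shares 82 exon bases with Pigl, 0.64% of its exon length, and 1 base with Ttc19, both on the other strand, and neither gene passed in any comparison.

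Set against the mean of the other 4 members, Hdac3 was lower in miKO than in WT by more than its own fall, since Tbl1x and Tbl1xr1 were higher there. The log2 CPM of Hdac3 minus the mean log2 CPM of the others was -1.59, -1.27 and -1.18 in WT-Sham and -2.4, -2.42 and -2.76 in miKO-Sham. It was -0.65, -0.73 and -0.90 in WT-tFCI and -1.34, -2.08 and -1.86 in miKO-tFCI. Within each surgery the groups did not overlap, but miKO-tFCI replicate 1 fell inside the range of WT-Sham. In CPM, Hdac3 amounted to 27.6% ± 4.46 of the sum of Tbl1x and Tbl1xr1 in WT-Sham and to 9.31% ± 0.73 in miKO-Sham, and to 37.4% ± 2.59 in WT-tFCI and 15.9% ± 6.04 in miKO-tFCI (SD, n = 3). These ratios are given without a test, since the members were chosen with results of these data known. They compare RNA and not protein, and say nothing of how much complex was assembled.

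**Figure D3:**
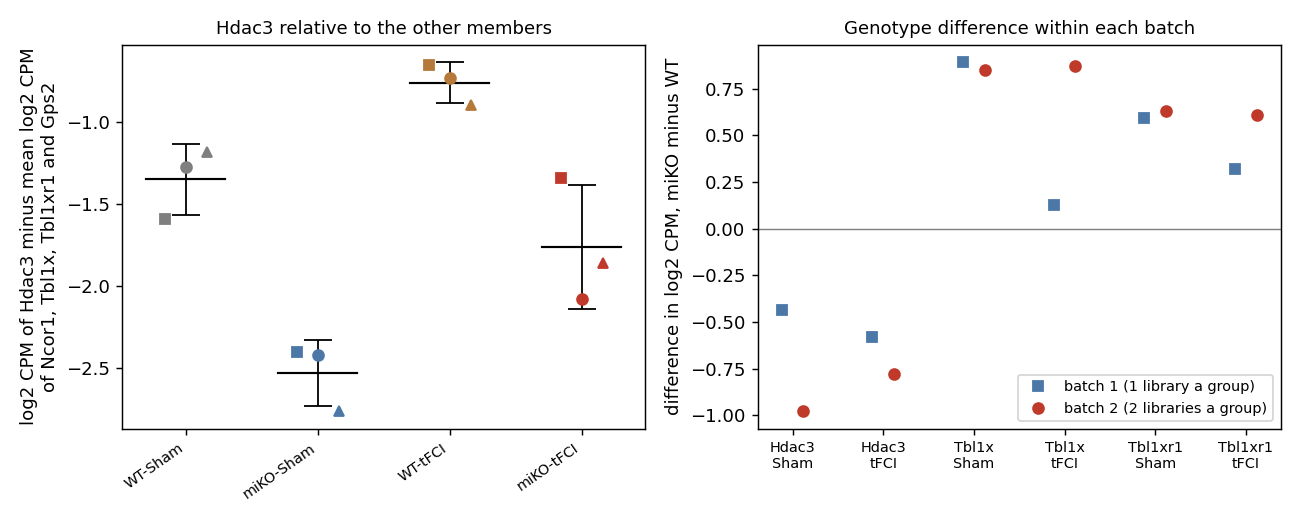
Left, log2 CPM of Hdac3 minus the mean log2 CPM of the other 4 members in each library (y axis) by group (x axis), with symbols for replicates 1 (square), 2 (circle) and 3 (triangle) and black lines for the mean and SD. Right, the miKO minus WT difference in log2 CPM (y axis) of Hdac3, Tbl1x and Tbl1xr1 after Sham and after tFCI, computed within batch 1 (squares) and batch 2 (circles): the signs were the same in both batches, and the gap between batches was widest for Tbl1x after tFCI, 0.13 against 0.87.

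None of the members passed the test of whether the genotype effect differed between tFCI and Sham. The differences were 0.10 for Hdac3 (SE 0.23, edgeR adjusted p = 0.875), -0.13 for Ncor1 (SE 0.18, 0.766), -0.22 for Tbl1x (SE 0.22, 0.667), -0.11 for Tbl1xr1 (SE 0.19, 0.837) and 0.09 for Gps2 (SE 0.17, 0.855). The count was 0 of 5 with edgeR and 0 of 5 with DESeq2, at an adjusted p under 0.05 and also at an unadjusted p under 0.05. Among all genes tested, 3.82% passed this test with edgeR. The 95% interval of Tbl1x ran from -0.69 to 0.24, so the data leave room for a difference about as large as its genotype effect after tFCI.

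Other partners of NCoR were followed through 7 further genes. In miKO-Sham vs. WT-Sham, 3 of the 7 were lower and 0 higher, beside 8.12% lower and 9.94% higher over all genes, with a median log2 fold change of -0.68 beside 0.04 over all genes. Coro2a, which encodes an actin-binding partner of NCoR, read 13, 19.8 and 23.1 CPM in WT-Sham and 4.58, 5.13 and 10.1 CPM in miKO-Sham (log2 fold change -1.49, SE 0.29, edgeR adjusted p = 0.00208). Hdac9, a class IIa deacetylase gene, read 12.4, 19 and 18.7 CPM against 6.66, 5.41 and 6.28 CPM (log2 fold change -1.41, SE 0.23, edgeR adjusted p = 0.000572). The groups did not overlap for either gene. After tFCI, where 5.40% of all genes were lower and 4.50% higher, 2 of the 7 were lower and 0 higher: Kdm4a, a histone lysine demethylase gene (log2 fold change -0.94, SE 0.18, edgeR adjusted p = 0.00413), and Coro2a (log2 fold change -0.94, SE 0.28, edgeR adjusted p = 0.0447). Kdm4a read 24.2, 19.4 and 21.1 CPM in WT-tFCI, against 9.4, 11.7 and 12.7 CPM in miKO-tFCI. The test of whether the genotype effect differed between tFCI and Sham passed for 0 of the 7, beside 3.82% of all genes.

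With tFCI the class IIa deacetylase genes moved in different directions. In miKO, where 24.5% of all genes rose and 17.7% fell, 3 of the 7 partners rose and 1 fell, and the 2 largest rises were those of Hdac7 (log2 fold change 2.69, SE 0.48, edgeR adjusted p = 0.000493) and Hdac9 (1.08, SE 0.23, edgeR adjusted p = 0.00199). Hdac7 was scarce after Sham, at 0.833, 2.22 and 0.64 CPM, and reached 14.1, 6.28 and 5.68 CPM after tFCI. It was highest in the library with the most monocyte marker RNA, which is also the only batch 1 library of miKO-tFCI. Hdac5 fell by 0.54 on the log2 scale (log2 fold change -0.54, edgeR adjusted p = 0.00962). In WT, where 23.5% of all genes rose and 15.4% fell, 1 rose, Hdac7 (1.25, SE 0.44, edgeR adjusted p = 0.0357), and 1 fell, Zbtb33, which encodes the NCoR-binding factor Kaiso (-0.82, SE 0.29, edgeR adjusted p = 0.0343).

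Of 23 genes for transcription factors that recruit the complex, 20 had enough counts to be tested. In miKO-Sham vs. WT-Sham 5 were higher and 1 lower, with a median of 0.63, and in miKO-tFCI vs. WT-tFCI 3 were higher and 1 lower, with a median of 0.53. Over all genes, 9.94% were higher and 8.12% lower after Sham, and 4.50% and 5.40% after tFCI, with a median of 0.04 in each. The 5 became 3 without WT-Sham replicate 3, and the 3 after tFCI became 0 without WT-tFCI replicate 2 and 1 without WT-tFCI replicate 1 or 3 or miKO-tFCI replicate 1. Vdr, Rara, Nr2f1 and Rarb had the largest fitted differences after tFCI (1.66, 1.47, 1.21 and 1.08), but none of them passed between genotypes. Their means in WT-Sham were 0, 0.143, 0.112 and 0.706 CPM. Such genes near the floor are part of both medians. The largest called rise was that of Nr1d1, which encodes the clock repressor REV-ERBα. It read 4.93, 7.17 and 5.03 CPM in WT-Sham and 40.3, 40.2 and 38.9 CPM in miKO-Sham (log2 fold change 2.80, SE 0.23, edgeR adjusted p = 1.12e-06). After tFCI it read 12.1, 7.27 and 13.2 CPM in WT and 21.3, 19.2 and 18.2 CPM in miKO (log2 fold change 0.85, SE 0.22, edgeR adjusted p = 0.0219). Nr1d1 thus rose with tFCI in WT (0.92, edgeR adjusted p = 0.00624) and fell with tFCI in miKO, by 1.03 on the log2 scale (log2 fold change -1.03, edgeR adjusted p = 0.00116). Thra, the thyroid hormone receptor gene, was also higher in miKO, by 1.29 after Sham (SE 0.22, edgeR adjusted p = 0.000794) and by 0.80 after tFCI (SE 0.22, edgeR adjusted p = 0.0319). Nr1d1 and Thra lie on opposite strands and share 263 exon bases, 8.55% of the exon length of Nr1d1 and 5.7% of that of Thra. The kit does not mark strand, so reads from that stretch cannot be assigned to either gene with certainty. Bcl6, whose product recruits NCoR in B cells and macrophages, went the other way and was lower in miKO by 0.47 after Sham (log2 fold change -0.47, SE 0.16, edgeR adjusted p = 0.0481) and by 0.78 after tFCI (log2 fold change -0.78, SE 0.15, edgeR adjusted p = 0.00478). The call of Bcl6 after Sham ended with a replicate block (edgeR adjusted p = 0.0574), without a batch term (0.23), without a filter on low counts (0.0882) and without either miKO-Sham replicate 2 (0.153) or 3 (0.182) or any one WT-Sham library (0.113 to 0.124), or replicate 2 or 3 of WT-tFCI or of miKO-tFCI (0.0502 to 0.076).

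With tFCI, 10 of the 20 rose and 4 fell in WT, beside 23.5% and 15.4% of all genes, and 8 rose and 6 fell in miKO, beside 24.5% and 17.7%. With at least 10 counts required in every library, 4 rose in WT and 2 in miKO, beside 2425 and 2537 of the 11607 genes then tested. That filter takes out Rara, Vdr and Nr2f1. It also takes out Nr2f2, Zbtb16 and Rarb, whose means in WT-Sham were 0.261, 0.481 and 0.706 CPM. Fewer than 20 genes of the list thus remained, so the 4 and 2 are not read against the shares of all genes either. Several of the rises started from almost no RNA. Such genes had enough counts to be tested only through their tFCI libraries, so a rise was the only direction open to them. The 10 and 8 rises are therefore not read against the shares of all genes. Rara, a retinoic acid receptor gene, read 0, 0.224 and 0.205 CPM in WT-Sham and 8.5, 2.08 and 2.44 CPM in WT-tFCI. Vdr, the vitamin D receptor gene, read 0 in the 3 WT-Sham libraries and 3.95, 0.693 and 0.244 CPM in WT-tFCI. In miKO-tFCI, Nr2f1, an orphan receptor gene, read 17.4, 4.4 and 2.6 CPM, Rara 21.6, 7.41 and 6.55 CPM, and Vdr 8.05, 1.26 and 3.34 CPM. For all 3 genes replicate 1 was the highest library in both tFCI groups. It had the highest monocyte marker sum of its group and was also the only library of batch 1 there. Endothelial marker sums also reached 169 CPM in WT-tFCI (median 60.6) and 278 CPM in miKO-tFCI (median 112). Astrocyte sums reached 276 CPM (median 180) and 569 CPM (median 233). Which of these, if any, goes with the 3 genes was not tested. Rxrb, a common partner of such receptors, fell in WT by 0.58 on the log2 scale (log2 fold change -0.58, SE 0.14, edgeR adjusted p = 0.00512), and so did Nr2c1 (log2 fold change -0.79, SE 0.20, edgeR adjusted p = 0.00687). In miKO the lipid-sensing receptor gene Ppard fell (log2 fold change -0.82, SE 0.27, edgeR adjusted p = 0.0226).

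Genes that the complex is known to hold down through REV-ERB and LXR were counted as well. Whether their changes come from the complex was not tested. Of 9 tested, 5 were higher and 0 lower in miKO-Sham vs. WT-Sham, beside 9.94% higher and 8.12% lower over all genes, with a median of 0.64. Most of them were LXR targets. Of the 5 LXR targets, Abcg1, Abca1, Mylip (1.115, edgeR adjusted p = 0.000813) and the phospholipid-remodelling gene Lpcat3 (0.64, edgeR adjusted p = 0.00826) passed, and the lipid-synthesis regulator gene Srebf1 did not (0.38, edgeR adjusted p = 0.0882). Of the 4 clock genes, Nfil3 passed (0.68, edgeR adjusted p = 0.0219), while Clock (0.20), Arntl (-0.22) and Cry1 (-0.40) did not (edgeR adjusted p = 0.406, 0.519 and 0.352). All 9 are named so that the list is complete, a choice made after their values were seen. Without a batch term 3 of the 9 passed. After tFCI 0 of the 9 passed with edgeR in miKO-tFCI vs. WT-tFCI, with a median of 0.29, while 2 had an unadjusted p under 0.05 and DESeq2 called 1, and 2 passed in batch 2 alone or without miKO-tFCI replicate 1. The 2 that rose most after Sham were the cholesterol exporter genes Abcg1 and Abca1. Abcg1 read 71.3, 62.7 and 52.5 CPM in WT-Sham and 160, 178 and 132 CPM in miKO-Sham (log2 fold change 1.33, SE 0.19, edgeR adjusted p = 0.000173). Abca1 read 419, 314 and 284 CPM against 967, 985 and 504 CPM (log2 fold change 1.27, SE 0.24, edgeR adjusted p = 0.00166). Abca1 was lowest in miKO-Sham replicate 3, the library with the most border-associated macrophage RNA of its group, and without that library the change was 1.54 (edgeR adjusted p = 8.88e-05). After tFCI, Abcg1 read 110, 99.3 and 114 CPM in WT and 94.7, 162 and 140 CPM in miKO, which overlapped, and its difference was 0.29 (95% interval -0.11 to 0.69). Mylip, which encodes a ubiquitin ligase for the LDL receptor, fell with tFCI in WT (log2 fold change -0.78, SE 0.19, edgeR adjusted p = 0.00525) and in miKO (log2 fold change -1.26, SE 0.19, edgeR adjusted p = 0.000145). Nfil3, a clock-linked repressor gene, rose with tFCI by 1.89 in WT and 1.37 in miKO (edgeR adjusted p = 2.5e-06 and 4.39e-05).

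**Figure D4:**
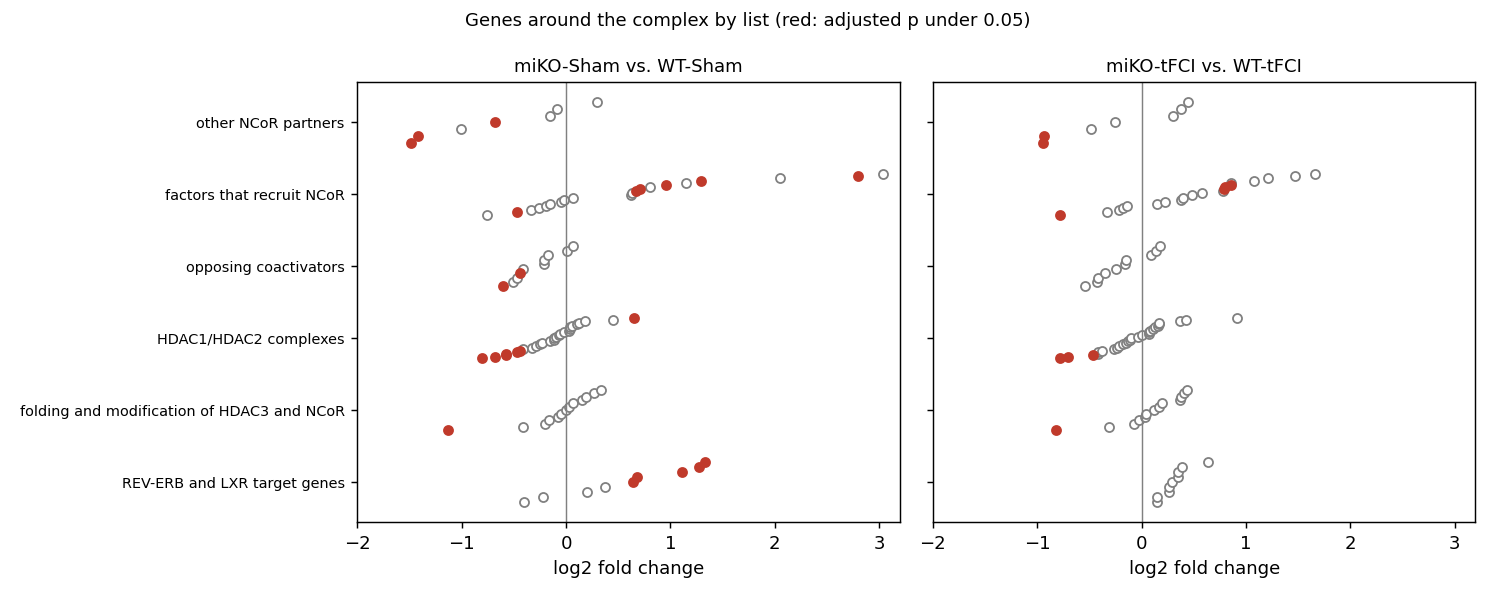
Log2 fold change (x axis) of each tested gene of 6 lists (rows) between miKO and WT, after Sham on the left and after tFCI on the right, with 1 point per gene, in red where the adjusted p was under 0.05. After Sham the red points of the partners lay below 0 (3 of 7) and those of the REV-ERB and LXR targets above 0 (5 of 9), and after tFCI 0 of the 9 targets were red. The open points far to the right among the recruiting factors are Rara and Vdr, which were at or near 0 in Sham.

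Coactivators replace the complex on activated genes. Of 10 such genes, 2 were lower and 0 higher in miKO after Sham, beside 8.12% and 9.94% of all genes: Ncoa2 (log2 fold change -0.61, SE 0.14, edgeR adjusted p = 0.00817) and the acetyltransferase gene Ep300 (log2 fold change -0.44, SE 0.14, edgeR adjusted p = 0.0474). The call of Ep300 ended with a replicate block (edgeR adjusted p = 0.0533), which left 1 of the 10, and also without a batch term (0.0975), without a filter on low counts (0.053) and without miKO-Sham replicate 2 (0.0989) or 3 (0.18) or any one WT-Sham library (0.07 to 0.173), any one WT-tFCI library (0.054 to 0.0645) or miKO-tFCI replicate 2 (0.0513). That of Ncoa2 ended without WT-Sham replicate 1 (edgeR adjusted p = 0.0579) or miKO-Sham replicate 1 (0.0515) and in batch 2 alone (0.0739). After tFCI 0 of 10 passed with edgeR between genotypes, 3 had an unadjusted p under 0.05 and DESeq2 called 0. The test of whether the genotype effect differed between tFCI and Sham passed for 0 of the 10, beside 3.82% of all genes. With tFCI itself 4 fell in WT and 3 in miKO, beside 15.4% and 17.7% of all genes, Ncoa2 by 0.72 in WT (log2 fold change -0.72, edgeR adjusted p = 0.00122) and Ep300 by 0.62 (log2 fold change -0.62, edgeR adjusted p = 0.00365).

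The other class I deacetylase complexes, built on HDAC1 and HDAC2, were followed through 27 genes. After Sham 6 were lower in miKO and 1 higher, and after tFCI 3 were lower and 0 higher, with medians of -0.12 and -0.10. Over all genes 8.12% were lower and 9.94% higher after Sham, and 5.40% and 4.50% after tFCI. The 6 became 3 without miKO-Sham replicate 1 or 2, and the 3 after tFCI became 0 without a batch term or without WT-tFCI replicate 2 or 3 or miKO-tFCI replicate 3, and 1 without miKO-tFCI replicate 1. Hdac1 itself read 77.6, 92.1 and 88.3 CPM in WT-Sham and 47.9, 47.4 and 65.8 CPM in miKO-Sham (log2 fold change -0.68, SE 0.16, edgeR adjusted p = 0.00749), and its difference after tFCI was -0.13 (edgeR adjusted p = 0.655). The test of whether its genotype effect differed between tFCI and Sham did not pass (0.55, SE 0.22, edgeR adjusted p = 0.204). That test passed for 0 of the 27 genes, beside 3.82% of all genes. Rcor1, the scaffold gene of the CoREST complex, was lower in miKO-Sham (log2 fold change -0.81, SE 0.15, edgeR adjusted p = 0.00146), and Chd3, a NuRD remodeller gene, was higher (0.65, SE 0.19, edgeR adjusted p = 0.0308), a call that ended without a batch term (edgeR adjusted p = 0.0751) and without miKO-Sham replicate 2 (0.14) or 3 (0.0566) or WT-Sham replicate 1 (0.088) or 2 (0.136). After tFCI the lowest were Chd4, the other main NuRD remodeller gene (log2 fold change -0.78, SE 0.19, edgeR adjusted p = 0.0193), and Elmsan1, the annotated name of the MiDAC scaffold gene Mideas (log2 fold change -0.71, SE 0.18, edgeR adjusted p = 0.0247). With tFCI 6 of the 27 rose and 2 fell in WT, and 7 rose and 4 fell in miKO, which is near or under the shares over all genes (23.5% and 15.4% in WT, 24.5% and 17.7% in miKO). Mbd2, which encodes a methyl-DNA reader, rose most in both among those that passed (1.07 and 1.14, edgeR adjusted p = 1.86e-05 and 1.11e-05).

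HDAC3 must be folded by the TRiC chaperonin before it joins the scaffold, and 13 genes for its folding and modification were followed. Between genotypes 1 of the 13 passed after Sham and the same 1 after tFCI, where 8.12% and 5.40% of all genes were lower: Siah2, which encodes a ubiquitin ligase known to target NCoR for degradation. It read 41.6, 62.7 and 58.6 CPM in WT-Sham and 27.8, 23 and 23.6 CPM in miKO-Sham (log2 fold change -1.13, SE 0.17, edgeR adjusted p = 0.000203), and 40.3, 37.6 and 38 CPM in WT-tFCI, against 23.5, 20.2 and 21.8 CPM in miKO-tFCI (log2 fold change -0.82, SE 0.17, edgeR adjusted p = 0.00632). The groups did not overlap in either surgery. With tFCI in miKO 9 of the 13 rose and 0 fell, beside 24.5% and 17.7% of all genes, namely the 8 TRiC subunit genes and Csnk2b, the regulatory subunit gene of casein kinase 2. The largest were Tcp1, from 111, 96.4 and 98.1 CPM to 199, 182 and 206 CPM (0.94, SE 0.12, edgeR adjusted p = 2.72e-05), and Cct5 (0.67, SE 0.13, edgeR adjusted p = 0.000713). In WT 4 rose and 1 fell, beside 23.5% and 15.4% of all genes, with Csnk2b (0.84, SE 0.16, edgeR adjusted p = 0.000801) and Cct2 (0.76, SE 0.12, edgeR adjusted p = 0.000252) first, and Siah2 fell (log2 fold change -0.49, SE 0.16, edgeR adjusted p = 0.0256). The test of whether the change with tFCI differed between miKO and WT passed for 0 of the 13, beside 3.82% of all genes. Tcp1 shares 11.4% of its exon bases with Acat3, Lpcat3 10.2% with Emg1, Zbtb33 9.25% with Tmem255a and Coro2a 5.09% with Gm16731. Of the other TRiC genes that rose in miKO, Cct6a shares 12.5% with Psph and Cct8 6.22% with Usp16. Each overlap is with the other strand, so part of the reads of these genes is uncertain in the same way as for Nr1d1 and Thra.

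For each member, the 3 genes whose batch-adjusted log2 CPM followed it most closely over the 12 libraries were found among 9317 genes with a mean of at least 10 CPM. The points share the 4 groups, so these correlations mostly describe a shared pattern of group levels. Hdac3 was followed by Adamts10 (r = 0.936), Ramp1 (0.933) and Arsb (0.925). Arsb, a lysosomal sulfatase gene, read 213 ± 34.9 and 61.4 ± 6.6 CPM in WT and miKO after Sham, and 284 ± 38.5 and 91.8 ± 20.4 CPM after tFCI. Tbl1x was followed by Reep3 (r = 0.982), Mrps18b (0.981) and Cd84 (0.98). Cd84, a surface receptor gene of the SLAM family, read 284 ± 20.2 and 1060 ± 80.4 CPM in WT and miKO after Sham, and 297 ± 46.3 and 693 ± 302 CPM after tFCI. Tbl1xr1 was followed by Cd300a (r = 0.969), Sqor (0.965) and Preb (0.962). Cd300a, an inhibitory receptor gene, read 255 ± 6.1 and 799 ± 82.6 CPM in WT and miKO after Sham, and 126 ± 3.68 and 294 ± 37.2 CPM after tFCI, the same order of groups within each genotype and surgery as for Tbl1xr1. Gps2 was followed by Trp53rka (r = 0.989), Gimap6 (0.978) and Lin37 (0.975), and Gimap6 read 75.7 ± 3.75 and 80.4 ± 20.3 CPM in WT and miKO after Sham, and 21.1 ± 1.26 and 23 ± 0.6 CPM after tFCI (SD, n = 3 throughout). Ncor1 was followed by Xpnpep3 (r = 0.942), Fmnl3 (0.94) and Plpbp (0.937). Among the members themselves, Hdac3 ran opposite to Tbl1x (r = -0.893) and Tbl1xr1 (r = -0.868), Tbl1x and Tbl1xr1 ran together (r = 0.798), and Gps2 ran closest to Ncor1 (r = 0.75).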

How the data were processed

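RNA of sorted microglia was sequenced from 12 libraries in 4 groups of 3. Per the labels and the submitters' processing notes, the authors used FastQC 0.11.9, Trim Galore, HISAT2 2.2.1, SAMtools and HTSeq 1.99.2 with mm10/GRCm38.p6, and deposited raw counts per gene for each library. Whether counting used strand is not given in the sources used here. A median of 49.5% of the entries in a library fell on no gene, and these and the other lines naming no gene were left out. Symbols came from GENCODE M21, which matched 55141 of 55401 identifiers.

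Counts were fitted with edgeR 4.0.16 (R 4.3.3, limma 3.58.1), with TMM scaling, filterByExpr, terms for group and batch, the quasi-likelihood test and Benjamini-Hochberg adjustment over 16451 genes. All 12 libraries entered 1 fit. A gene passed at an adjusted p under 0.05, and 0.58 is the study's threshold for the absolute log2 fold change. Log2 CPM used a prior count of 2. DESeq2 1.42.0, other scaling and filters, no batch term, a replicate block, fewer libraries and coding lengths were alternatives. The code was tested on simulated data. The interval level was 95%. Libraries came from separate pools of mice. Libraries of the same group differed by more than counting noise, least so miKO-Sham replicates 1 and 2 (chi-square per degree of freedom 2.82), and each was counted once.

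The members and the 6 gene lists (90 genes) were chosen with earlier results of these data known. Named were all members, from each list at most the 2 genes that rose and the 2 that fell most in each of the 4 comparisons among those that passed, the 3 genes most alike each member, genes overlapping a member and the neighbours of Hdac3. An item that the rule also covers is not reported here. The neighbours of Gps2 were added after their values were seen. For other cell types, the neutrophil list summed to 452 to 1060 CPM per library, border-associated macrophage 51.3 to 739, T cell 1.1 to 7.74, B cell 151 to 512, neuron 2.26 to 16.8, astrocyte 109 to 569, oligodendrocyte 144 to 265 and endothelial cell 12.3 to 278. After tFCI the neutrophil list summed to 452 to 497 CPM in WT and 743 to 889 in miKO. The B cell list summed to 266 to 330 CPM in WT and 151 to 155 in miKO there. After Sham the libraries of the 2 genotypes did not overlap on the astrocyte, oligodendrocyte and endothelial lists, lower in miKO, or the neuron and T cell lists, higher in miKO. The part of these lists in the results was not tested.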

Additional observations from a re-analysis of the deposited data

Results flagged for a closer look

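A pair of named genes had a genotype effect that differed between surgeries by a test of the difference itself. For Nr1d1 the miKO effect after tFCI was lower than that after Sham by 1.94 on the log2 scale (difference -1.94, SE 0.31, edgeR adjusted p = 0.00283), as its miKO effect was 2.80 after Sham and 0.85 after tFCI. Nr1d1 shares 263 exon bases with Thra on the other strand. For Abcg1 the difference was -1.04 (SE 0.27, edgeR adjusted p = 0.0414), with miKO effects of 1.33 after Sham and 0.29 after tFCI. With 3 libraries in a group, no library was tested for standing apart.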

How the results depend on the processing

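Of 25 log2 fold changes of the members (5 comparisons each), 495 values came from the alternatives. None of the changes that had passed turned its direction. Hdac3, Tbl1x and Tbl1xr1 kept their calls in miKO-Sham vs. WT-Sham under each alternative run, as did Gps2 in both comparisons of surgery and Tbl1xr1 in miKO-tFCI vs. miKO-Sham. In miKO-tFCI vs. WT-tFCI, leaving out 1 library moved Hdac3 between -0.87 and -0.64. The number of members that passed there, the deleted gene Hdac3 included, was 3 with all libraries and 1 to 3 with 1 left out. In WT-tFCI vs. WT-Sham that number (2 with all libraries) was 1 in batch 2 alone and 1 to 2 with 1 library left out, and Tbl1xr1 was the member that was lost. Fewer libraries were in these fits. Changes that had not passed crossed 0: Ncor1 in miKO-Sham vs. WT-Sham (-0.000575 with at least 10 counts in every library, -0.0164 in batch 2 alone, -0.0209 to 0.0817 with 1 library left out), Gps2 there (-0.059 to 0.104 with 1 library left out), Tbl1x in WT-tFCI vs. WT-Sham (-0.001944 without a filter, -0.0736 to 0.0538 with 1 library left out), and in the difference of genotype effects Hdac3 (-0.0525 to 0.277), Tbl1xr1 (-0.203 to 0.0154) and Gps2 (-0.0639 in batch 2 alone). The cause was not tested.

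Over all genes, the 1629 calls in miKO-tFCI vs. WT-tFCI became 745 without the batch term, 3028 with only the groups compared in the fit and 2466 without a filter, and the 629 calls for the difference of genotype effects became 303, 1272 without a filter and 999 with DESeq2. With 1 library left out these counts ran from 616 to 1900 and from 281 to 883. For the 38 named list genes, 1030 of 1153 values kept direction and call, 123 lost the call and 0 turned direction. The ratio of Hdac3 to the other members differed between miKO and WT by -1.18 after Sham and -0.9995 after tFCI, and by -1.30 to -1.02 and -1.21 to -0.84 over its alternatives.

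Replicate numbers were shared by the groups, but 15 of 18 pairs of same-numbered libraries had deviations correlated above 0.1 (lowest -0.415), the other 3 all with miKO-Sham replicate 2, and 8 of 12 libraries correlated best with their own number, so the numbers were not taken as pairing beyond batch. With the replicate block in place of batch, 2908, 1610, 6360, 6960 and 612 genes were called (genotype after Sham and after tFCI, surgery in WT and in miKO, and the difference of genotype effects), against 2972, 1629, 6402, 6957 and 629, and no call of a member changed with the block. Bcl6 and Ep300 in miKO-Sham vs. WT-Sham and Cry1 in WT-tFCI vs. WT-Sham lost their calls with it. Counts of 163 to 458 limit Hdac3 more than the other members.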
